A study of Danio rerio with 2 samples.

Results

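Genes that start or carry out programmed cell death were examined in whole zebrafish embryos (Danio rerio) labelled wild-type or ezh2-/-. The members are the 8 genes that the authors' table of differing genes holds under these names: bbc3, each gene that the table's protein annotation calls a caspase (6 genes), and member 27 of the tumor necrosis factor receptor superfamily, written TNFRSF27 here. They are 8 of the 1287 genes in that table. The genes in the table were selected on the authors' FDR and fold change between the same libraries, so the differences below describe the members and test nothing. The name TNFRSF27 is that of a TNF receptor: in human, it is the ectodysplasin A2 receptor (EDA2R). EDA2R lacks the death domain of receptors such as FAS. Another database matched the zebrafish gene to a different receptor, Edar, so the names do not settle whether it is a death receptor. Whether the zebrafish protein has a death domain was not examined, and it is called a TNF receptor below.

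The WT group was wild-type embryos of the AB background and the mutant group was ezh2-/- embryos of the same background, both collected 28 hours post fertilization. Each group is 1 library of polyadenylated RNA from whole embryos, so there is no spread between replicates and no p-value for any difference. The sources used here do not give the ezh2 allele, the number of embryos in a library or how mutants were picked out. Ezh2 itself is not among the listed genes, so the genotype labels were not checked on it.

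Caspases are proteases that cut after aspartate. Initiator caspases are switched on in large complexes, caspase-8 below death receptors and caspase-9 on the apoptosome, and they cut and activate the executioner caspases, such as caspase-3 and caspase-6, which take the cell apart. Bbc3, also called Puma (p53 upregulated modulator of apoptosis), is a BH3-only protein that frees Bax and Bak to permeabilise mitochondria. Ezh2 is the histone methyltransferase of Polycomb repressive complex 2, whose mark lies on repressed genes.

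The mutant library held more RNA for 7 of the 8 genes and less for 1, casp20. At least 2-fold higher counts are shown by 68.1% of all listed genes and at least 2-fold lower counts by 31.9%. The authors' selection left out smaller differences. With 8 genes, how the direction of the members compares with these shares cannot be judged, and nothing is read from it. At least 4-fold higher were 3 of the 8, namely TNFRSF27, bbc3 and casp8, beside 22.8% of all listed genes. All 8 had at least 50 reads in one library. In whole embryos, a lower number of cells of a type and less RNA per cell cannot be told apart.

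**Figure D1:**
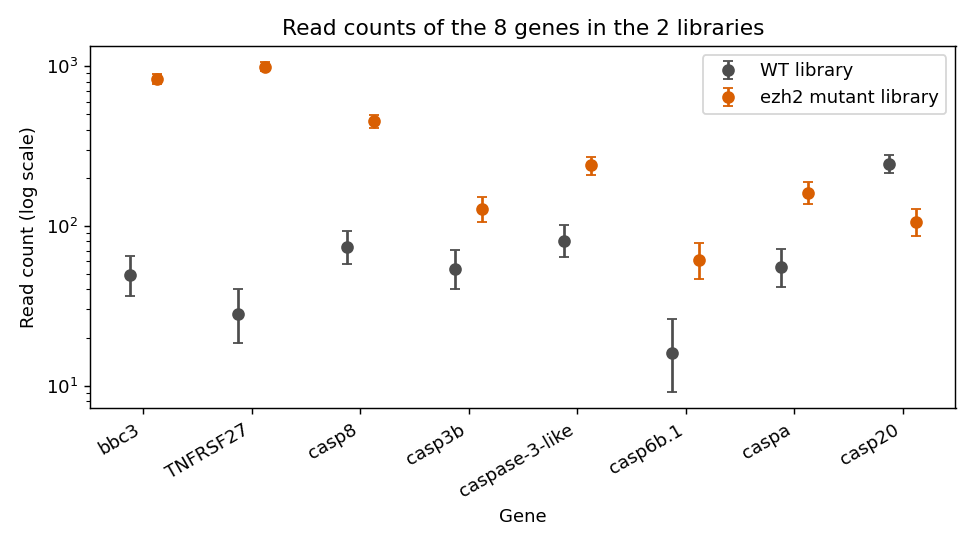
Read counts (log scale) of the 8 genes in the WT library (grey) and the ezh2 mutant library (orange); each point is 1 library and bars are 95% exact Poisson intervals, which cover counting error only. casp20 is the gene with the higher count in the WT library, 244 against 106, and bbc3 and TNFRSF27 have the widest gaps.

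The BH3-only gene bbc3 (gene26292) had 49 reads in the WT library and 833 in the mutant library, or 0.743 and 13.8 FPKM (fragments scaled for transcript length and library size). It was low in the WT library and well counted in the mutant one. The ratio of its counts was 17.2 with a 95% exact interval of 12.9 to 23.4, which like every interval here covers counting error only, and the ratio of its FPKM values was 18.6. Its fold was number 47 from the top among the 1287 listed genes. By FPKM, 25.9% of listed genes lay below bbc3 in the WT library and 81.3% lay below it in the mutant library. The table gives bbc3 the terms for positive regulation of apoptosis and of caspase-type peptidase activity, and no KEGG or Swiss-Prot entry.

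TNFRSF27 (gene13767) showed the widest difference of the 8 genes. It had 28 reads in the WT library and 992 in the mutant library, or 0.325 and 12.5 FPKM. Its WT level was the lowest of the 8 per length and its mutant level came after those of bbc3 and casp8. The ratio of counts was 35.8 (24.6 to 54.1) and that of FPKM 38.4, number 27 from the top of the table. The protein names it received differ between databases: TNF receptor superfamily member 27 by NR, the NCBI protein database, and medaka Edar, the ectodysplasin receptor of skin appendages, by Swiss-Prot. In the supplied RefSeq names, tnfrsf27 is an older name of the zebrafish gene si:dkey-204l11.1.

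**Figure D2:**
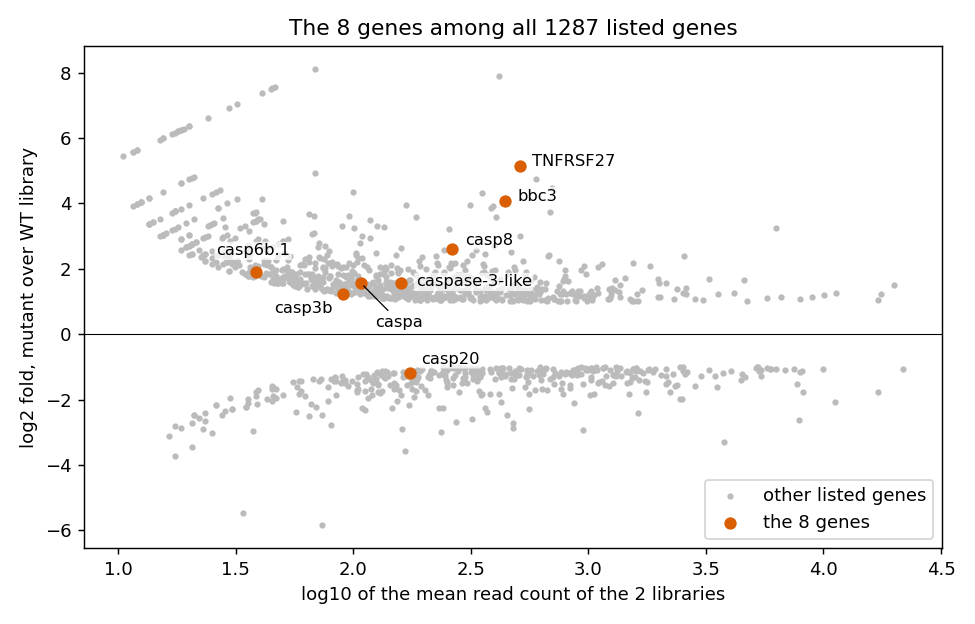
log2 fold of the mutant over the WT library against log10 of the mean read count of the 2 libraries, for all 1287 listed genes (grey) and the 8 genes (orange, named). TNFRSF27 and bbc3 stand above the bulk of well-counted listed genes at 5.14 and 4.09, while caspa at 1.56 and the caspase-3-like gene at 1.57 lie near the median of the genes at least 2-fold higher, 1.61; the gap around 0 is that selection.

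Caspase 8 was the 1 listed initiator. casp8 (gene14975), the caspase that death receptors recruit, had 74 reads in the WT library and 452 in the mutant library, or 1.99 and 12.8 FPKM. Its count ratio was 6.17 (4.82 to 7.999). In FPKM it stood behind casp20 and casp3b in the WT library and behind bbc3 alone in the mutant library. The initiator genes casp2, casp9 and casp10 and the casp8 copy casp8l1 were not listed under those names, and nothing can be said of their levels.

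The 3 listed executioner genes were all higher in the mutant library, with ratios under that of casp8. Of all listed genes, 68.1% were at least 2-fold higher, and nothing is read from the shared direction of the 3. casp3b (gene24806), 1 of 2 zebrafish caspase-3 genes, had 54 WT and 127 mutant reads (2.58 and 5.56 FPKM), a ratio of 2.38 (1.71 to 3.33). A gene named caspase-3-like (gene21355) had 81 WT and 239 mutant reads (1.19 and 4.67 FPKM), a ratio of 2.98 (2.31 to 3.88). casp6b.1 (gene4189), listed as caspase 6 like 1, had 16 WT and 61 mutant reads (0.901 and 3.43 FPKM), a ratio of 3.85 (2.19 to 7.16). The intervals of the 3 executioners overlap one another, so their order was not resolved even against counting error. With 1 library per group, no order between genes here, that against casp8 included, has a replicate check. The interval of casp6b.1 also overlaps that of casp8, while those of the other 2 end below it. casp6b.1 has the fewest reads of the 8 genes in both libraries.

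Summed over the 3 executioners, the WT library held 151 reads and the mutant library 427, a ratio of 2.86 (2.37 to 3.46). This interval ends below the one of casp8, which begins at 4.82. In the sum of FPKM, the executioners went from 4.67 to 13.7 and casp8 from 1.99 to 12.8. The executioner sum was 2.35 times the level of casp8 in the WT library and 1.07 times in the mutant library, in FPKM. The caspase-3-like gene, put in this class by its annotated name, gave 81 of the 151 WT reads and 239 of the 427 mutant reads. The executioner genes casp3a and casp6a were not listed under those names, so these sums do not give the executioner level of the embryo.

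The inflammatory class was represented by caspa (gene27839, also caspase-1 or caspy), which in zebrafish acts with the inflammasome adaptor Asc. It had 55 WT and 161 mutant reads (1.96 and 5.97 FPKM), a ratio of 2.96 (2.16 to 4.09). That interval overlaps those of all 3 executioners and ends below that of casp8. No gene of the inflammasome list, which holds 9 genes, was matched by symbol.

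casp20 (gene14981) was the 1 caspase gene with less RNA in the mutant library. The table calls it an uncharacterized protein in NR and a caspase in Swiss-Prot only, and its NCBI gene number, 100192215, belongs to casp20 in the RefSeq names; it is put in no class here. It had 244 WT and 106 mutant reads, or 9.48 and 5.07 FPKM, a count ratio 2.28-fold lower (1.81 to 2.89). In FPKM the difference was smaller, 1.87-fold. casp20 had the highest FPKM of the 8 genes in the WT library and stood sixth in the mutant library. In the RefSeq assembly GRCz12tu, casp20 and casp8 lie on chromosome 6 with 3 protein-coding genes between them. One of these is casp8l1, which was not listed under that name. casp20 and casp8, near each other but not adjacent, thus went opposite ways in these libraries.

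**Figure D3:**
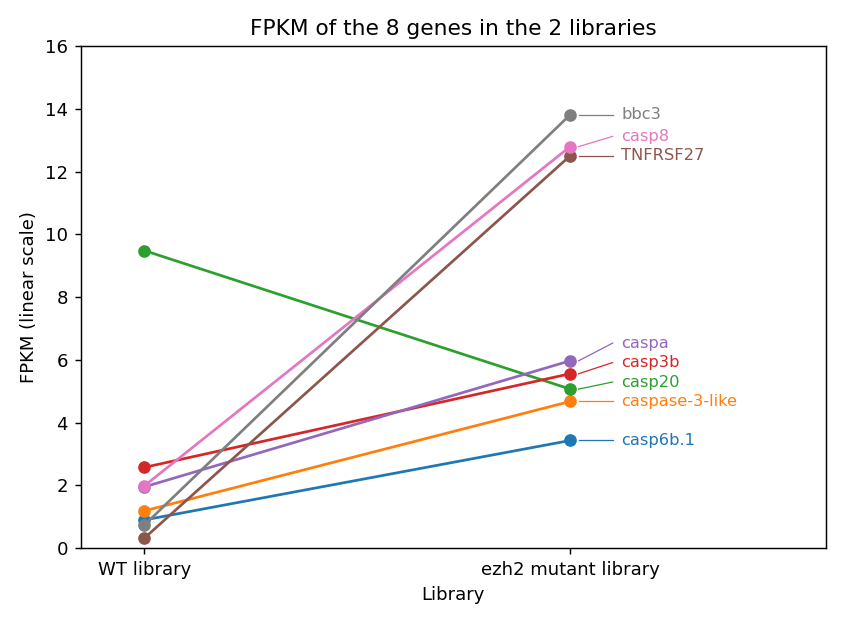
FPKM (linear scale) of the 8 genes in the WT library (left) and the ezh2 mutant library (right); each line is 1 gene. In the mutant library bbc3, casp8 and TNFRSF27 lie together between 12.5 and 13.8, and the other 5 between 3.43 and 5.97; casp20 is the line that descends.

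The order of levels per length was different in the libraries. In the WT library it ran, in FPKM, from casp20 at 9.48 through casp3b at 2.58, casp8 at 1.99, caspa at 1.96, the caspase-3-like gene at 1.19, casp6b.1 at 0.901 and bbc3 at 0.743 to TNFRSF27 at 0.325. Neighbours from casp3b to caspa rest on 54 to 74 reads each, and with 1 library their order has no replicate check. In the mutant library bbc3 came first at 13.8, followed by casp8 at 12.8 and TNFRSF27 at 12.5, then caspa at 5.97, casp3b at 5.56, casp20 at 5.07, the caspase-3-like gene at 4.67 and casp6b.1 at 3.43. There the lowest of the first 3 genes was 2.09 times the next gene in FPKM.

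Counts and FPKM did not give the same fold for each gene. Over 391 listed genes with at least 200 reads in both libraries, the reads behind 1 unit of FPKM were compared; the mutant value was a median of 0.978 times the WT value, and the 5th and 95th percentiles were 0.831 and 1.08. The caspase-3-like gene was at 0.752 and casp20 at 0.812, below those percentiles. Accordingly, in FPKM the caspase-3-like gene was 3.92-fold higher against 2.98-fold in counts. casp3b was at 1.09, just above them, and its FPKM ratio was 2.16. casp3b, casp20 and the caspase-3-like gene each had fewer than 200 reads in 1 or both libraries. They are thus outside the 391 genes, and the spread of this value at lower counts was not measured. Transcript lengths are not in the table, and a shift between transcript forms was not tested.

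What the caspase genes share beyond their names is their annotation. All 6 carry a gene ontology term for cysteine-type peptidase activity and all 6 fall in KOG class D, cell cycle control and cell division, which holds 19 listed genes. For 5 of the 6, casp8 and casp20 included, the Swiss-Prot match is the p12 subunit of frog (Xenopus laevis) caspase-3, so that column does not tell caspases apart. casp6b.1 lies side by side with casp6a and casp6b.2 in GRCz12tu, and reads of similar copies may have been divided between them. RefSeq names 19 zebrafish caspase genes, of which 5 were listed. The caspase-3-like gene has no such symbol. How large a share of all measured genes entered the authors' table is unknown, so nothing is read from 5 of 19.

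In the authors' deposited table the FDR, an adjusted p-value for 1 library against 1 library, is listed as 0 for bbc3, TNFRSF27 and casp8. Among the other members it ran from 3.31e-06 for the caspase-3-like gene to 0.00870 for casp3b in the authors' deposited table. casp3b was thus close to the largest FDR listed for any gene in the authors' deposited table, 0.00996. The smallest absolute log2 fold change of a member in the authors' deposited table was that of casp20, -1.18, where the table ends at 1. Genes just beyond these limits are not in the table. Just outside the choice of names lay 2 genes named for a caspase recruitment domain, which are not proteases. Both had at least 2-fold more reads in the mutant library, as did 68.1% of all listed genes. Values are given for 1 of them, the one with the larger ratio. This gene, caspase recruitment domain-containing protein 14 (gene15194), had 12 WT and 88 mutant reads, a ratio of 7.41 (4.03 to 14.9).

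Receptors of the TNF family other than TNFRSF27 went both ways. Of a list of 22 death and TNF receptor genes, 3 were listed, 1 higher and 2 lower. tnfrsf1a, a TNF receptor with a death domain, had 151 WT and 552 mutant reads, a ratio of 3.69 (3.08 to 4.45). hdr, the hematopoietic death receptor of zebrafish, had 227 WT and 77 mutant reads, 2.92-fold lower (2.24 to 3.83). The 8 listed erythroid marker genes were lower in the mutant library too, and their part in the value of hdr was not tested. A TNFRSF14-like gene had 250 WT and 68 mutant reads, 3.64-fold lower (2.77 to 4.83). Of 16 adaptor and regulator genes, 1 was listed: traf2b, an adaptor of TNF receptors, with 74 WT and 183 mutant reads, a ratio of 2.50 (1.90 to 3.32). None of 9 death ligand genes was matched.

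Genes of the mitochondrial route were counted in the same way. Of 24 pro-apoptotic BCL2 family genes, a list that leaves out bbc3, 1 was listed: bcl2l14, with 44 WT and 184 mutant reads, a ratio of 4.22 (3.03 to 6.01). None of 8 anti-apoptotic BCL2 family genes was matched. Of 9 genes for inhibitors of apoptosis and their antagonists, 1 was matched, an HTRA2-like mitochondrial protease gene, with 109 WT and 283 mutant reads, a ratio of 2.62 (2.095 to 3.30). None of 17 apoptosome and execution genes, such as apaf1 and parp1, was matched. These counts have no share of all measured genes to stand beside. A gene not matched may have differed by less than the authors' limits or been too low to pass them. It may also be listed under another name.

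**Figure D4:**
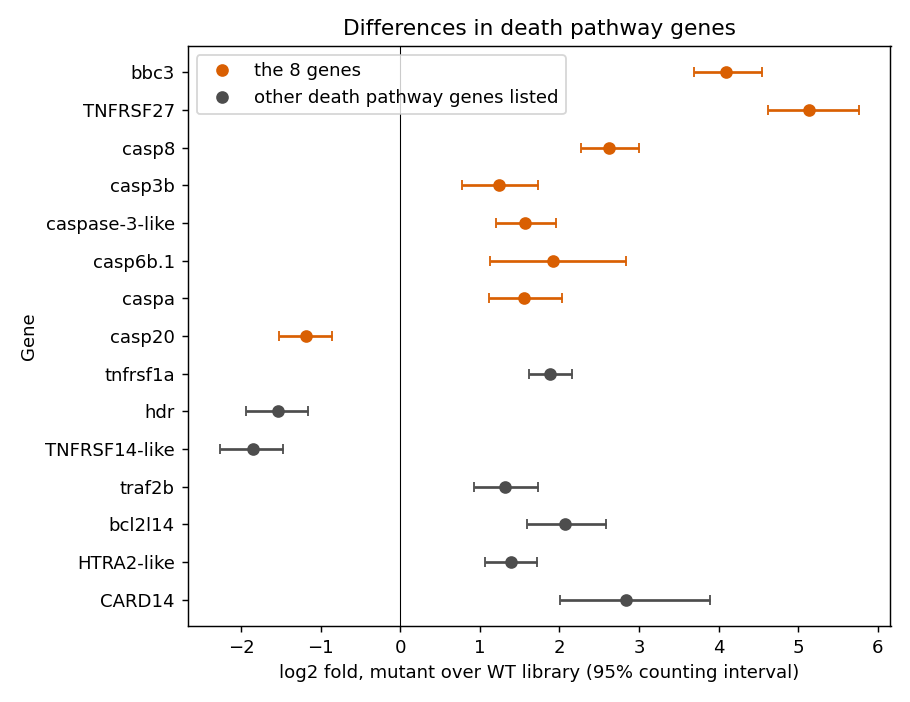
log2 fold of the mutant over the WT library for the 8 genes (orange) and for other listed genes (grey), with 95% exact counting intervals. Grey points are the matched genes of the pathway lists outside the p53-linked list, and CARD14. CARD14 is in no pathway list. Of the 2 caspase recruitment domain genes it has the larger ratio, and the other is not drawn. The receptor genes hdr and TNFRSF14-like and the caspase gene casp20 lie left of 0; the other genes drawn lie right of 0, from casp3b at 1.24 to TNFRSF27 at 5.14.

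Of 25 genes in a list of p53-linked death and arrest genes, which holds bbc3 too, 10 were listed and all 10 were at least 2-fold higher in mutant embryos, beside 68.1% of all listed genes. The share of all measured genes that entered the table is unknown, so nothing is read from 10 of 25. Their median log2 fold, with bbc3 counted, was 1.91, beside 1.31 over all listed genes and 1.61 over the listed genes at least 2-fold higher. Since bbc3 is itself a member and raises this median, nothing is read from it. bbc3, with a log2 fold of 4.09, came second in that list, after the cell cycle inhibitor gene cdkn1a with 4.46. Among the others, phlda3, which encodes an inhibitor of Akt signalling, had 106 WT and 686 mutant reads. aen, which encodes an apoptosis-enhancing nuclease, had 662 WT and 1401 mutant reads, a ratio of 2.14 (1.95 to 2.35). The sestrin genes sesn2 and sesn3 had 83 and 1026 WT reads against 246 and 2981 mutant reads, ratios of 2.99 (2.33 to 3.89) and 2.93 (2.73 to 3.15). A 40S ribosomal protein S27-like gene had 421 WT and 1865 mutant reads, a ratio of 4.47 (4.02 to 4.99).

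Per length, the listed genes nearest to bbc3 in both libraries, among those with a descriptive product name, were rbl2, fosl1a and cbx7a. Nearness here is the distance in log2(FPKM + 0.1) over the 2 libraries. rbl2, which encodes a retinoblastoma-like protein, lay at a distance of 0.34, with 0.822 FPKM in the WT library and 11.1 FPKM in the mutant one. fosl1a, an AP-1 transcription factor gene, lay at 0.51, with 0.538 and 11.1 FPKM. cbx7a, a Polycomb chromodomain gene, lay at 0.77, with 1.22 and 18.4 FPKM.

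Markers of cell types that were listed also differed between the libraries, as the authors' selection requires of any listed gene. At least 2-fold lower counts are shown by 31.9% of all listed genes. All 6 erythroid markers were listed, matched by 8 genes, and all 8 were lower in the mutant library, with a summed FPKM of 10647 for WT and 2527 for the mutant library. Of 5 neural progenitor markers, 2 were listed, both lower, with a sum of 237 and 95.8 FPKM. Of 6 neutrophil markers, 3 were listed: lyz and cpa5 were lower, mmp13a was higher, and their sum was 92.6 and 40.1 FPKM. Of 9 macrophage markers, ctss2.1 alone was listed, at 68.2 FPKM in the WT library and 215 FPKM in the mutant one. None of 7 periderm and epidermis markers was matched, and no listed marker had 0 reads in either library. The part of cell type makeup in the differences of the 8 genes was not tested.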

How the data were processed

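Polyadenylated RNA of whole embryos was measured in 1 WT and 1 ezh2 mutant library made with the NEBNext Ultra RNA kit, per the labels' protocols. The submitters' processing notes name GRCz10, Bowtie 0.12.2 and Cufflinks without their roles. Per the file headers, the authors deposited raw read counts, FPKM values (scaled by the authors for length and library size), an FDR (an adjusted p-value) and a log2 fold change. The library depth is unknown, since only the selected genes are listed (sums of 799647 WT and 764775 mutant reads).

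Here, a count ratio was multiplied by 1.01, the scale the authors' log2 fold changes imply over 391 genes with at least 200 reads in both libraries; log2 folds add 0.5 to each count. Intervals are 95% exact (Clopper-Pearson for ratios, Poisson for counts). Reads carry no molecular identifiers and can be copies of each other, so intervals cover counting error only. The kit does not mark strand, so overlapping antisense genes cannot be told apart. The steps were tested on simulated data (Python 3.11.15, scipy 1.17.1).

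Symbols come from the table's KEGG and Swiss-Prot entries, updated by gene number in the RefSeq table of GRCz12tu, or from product names. Pathway list genes and markers are called listed where such a name matched, so a gene under another name could be missed. The rule for named genes takes each member, each listed gene of the 9 pathway lists and the 3 descriptively named genes nearest to bbc3. Not all of these genes are reported here. Members, lists and rules were chosen with earlier results of these data known. No sequence was used here. Alternatives were another added count, FPKM in place of counts, other scales, a minimum of 50 reads and other name rules.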

Additional observations from a re-analysis of the deposited data

How the results depend on the processing

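No paired analysis was possible because each group has 1 library, and for the same reason no library could be left out. With 5 counts added, with no scale between the libraries, with a minimum of 50 reads and with caspases named by Swiss-Prot, each of the results recomputed stayed within its counting interval or count limit. Counts were held to a limit of 1.5 times the reported number. When the 2 caspase recruitment domain genes were counted, an alternative chosen after seeing the data, 9 members in place of 7 were at least 2-fold higher. From FPKM with 0.1 added, 0 members were at least 2-fold lower, since the log2 fold of casp20 was -0.89; with caspases named by NR alone, which leaves casp20 out, the number was also 0. Scales centred on the listed genes lower every log2 fold by construction, as most listed genes were selected as higher. With the median of listed genes set to 0 (a shift of 1.31), 3 members were at least 2-fold higher, the median log2 fold of the caspase genes was 0.26, the log2 ratios of sums were 0.20 for executioners and 1.31 for the initiator, and casp3b turned lower, at -0.066. On the trimmed-mean scale (shift 1.22), 3 members were at least 2-fold higher, the median was 0.34, and the log2 ratios of sums were 0.29 and 1.39. The 3 are bbc3, TNFRSF27 and casp8. Read depth limits casp6b.1 most, with 16 WT reads.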
